A study of Mus musculus with 6 samples.

Results

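The integrin and laminin genes of mouse were taken by symbol: every gene named as an integrin alpha or beta chain (Itga or Itgb followed by a number or by d, e, l, m, v or x) or as a laminin alpha, beta or gamma chain (Lama, Lamb or Lamc followed by a number). They were 37 of the 20325 genes in the files, 26 integrins (18 alpha and 8 beta chains) and 11 laminins (5 alpha, 3 beta and 3 gamma chains). Of the 37, 34 had a count in at least 1 library and 24 had enough counts to be tested, 14 integrins and 10 laminins. They were followed in 6 RNA-seq libraries from 2 mouse lines of pre-iPSCs, cells that have begun but not completed reprogramming to pluripotency. Both lines, pre2-2 and pre3, were at passage 10, and came from embryonic fibroblasts of the OG2 transgenic strain, in which the Pou5f1 promoter drives GFP. Their strain background was 1/2 129SVJ, with C57B6 at 3/8 and CBA at 1/8. There were 3 treatments of each line: no transfection, a control siRNA and siTet1, an siRNA against Tet1, an enzyme that oxidises methylated cytosine in CG dinucleotides. Every library, controls included, came from cells in embryonic stem cell medium with LIF and vitamin C at 50 µg/ml.

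The labels leave several points unsettled. Sample source and cell type read fibroblasts, whereas the design text names pre-iPSCs. A characteristic gives the siRNA target as Tet, and the titles give Tet1; a column header of the deposited TPM table of the whole series reads siTet2, which matches no sample, and that table was not used. Vitamin C was added 16 h after transfection and RNA taken 32 h later by the design text, but by the sample descriptions RNA was taken 48 h after transfection and vitamin C lasted 36 h. Each combination of line and treatment gave 1 library, and nothing says that the libraries of a line came from separate cultures, so p-values measure only a spread between libraries that may be technical.

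Integrins are receptors of an alpha and a beta chain that cross the cell membrane and hold the cell to the matrix outside it. Laminins are secreted trimers of an alpha, a beta and a gamma chain and form the sheet on which a basement membrane is built. The alpha chain of an integrin decides much of what it binds: Itga3 and Itga6 take part in laminin receptors, Itga5 in the fibronectin receptor and Itgav in receptors of vitronectin and latent TGF-beta. Itgb1 pairs with most of these alpha chains, while Itgb4 pairs with Itga6 in hemidesmosomes. In the early embryo, laminins of the Lama1 and Lama5 types line the first basement membranes.

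Tet1 acts at CG dinucleotides, and 3 members were higher with siTet1 than with control siRNA. The 200 bases before their transcription starts are therefore printed, with CG in capitals. The sequences are those of RefSeq on GRCm38.p6, written 5′ to 3′ on the gene's strand; 23 of the 37 members matched an entry, with 26 starts. The deposited values were made on mm9, so these positions do not belong to the deposited files. The starts are those of Itga3 at chr11:95076715-95076914 (minus strand), a second Itga3 start at chr11:95069199-95069398 (minus strand), Lama5 at chr2:180225860-180226059 (minus strand) and Lamb2 at chr9:108479662-108479861 (plus strand).
Itga3: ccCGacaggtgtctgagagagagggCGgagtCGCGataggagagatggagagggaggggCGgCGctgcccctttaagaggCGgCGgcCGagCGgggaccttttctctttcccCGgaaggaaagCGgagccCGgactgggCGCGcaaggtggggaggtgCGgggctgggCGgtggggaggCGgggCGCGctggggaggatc
Itga3, second start: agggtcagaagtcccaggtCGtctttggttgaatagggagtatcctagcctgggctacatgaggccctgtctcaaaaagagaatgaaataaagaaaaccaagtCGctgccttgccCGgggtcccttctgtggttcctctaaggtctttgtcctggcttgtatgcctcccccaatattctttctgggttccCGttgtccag
Lama5: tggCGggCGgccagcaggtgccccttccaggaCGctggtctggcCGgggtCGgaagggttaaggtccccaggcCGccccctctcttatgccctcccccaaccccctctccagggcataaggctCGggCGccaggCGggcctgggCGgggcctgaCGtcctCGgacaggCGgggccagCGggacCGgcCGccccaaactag
Lamb2: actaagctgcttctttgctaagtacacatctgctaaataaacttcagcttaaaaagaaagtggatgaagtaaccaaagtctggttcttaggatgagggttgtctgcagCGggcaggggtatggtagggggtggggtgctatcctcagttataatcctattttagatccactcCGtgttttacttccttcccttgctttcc

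The sequences differ among themselves. The first Itga3 window held 20 CG dinucleotides, the second Itga3 window 4, Lama5 16 and Lamb2 2, against a median of 5 over 32851 promoter windows of the same length from 27025 genes. GGGCGG, the core of the binding motif of Sp1-family factors, was searched on both strands and matched 3 times in the first Itga3 window, 4 times in Lama5 and in neither of the other windows. It was present in 31% of all promoter windows. TATAAA (in 9.96% of all windows), TGANTCA, the AP-1 motif (5.48%), GGAATG, the motif of TEAD factors (10.1%), and TGACGTCA, the CRE motif (1.47%), matched none of these 4 windows. CG-rich and CG-poor windows thus both occurred among the 3 genes. Methylation was not measured in these libraries.

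The libraries held 1868640 to 2582803 counts, of which integrins and laminins took 0.379 to 0.556%. At this depth 3 counts, taken as the floor, amounted to 1.16 to 1.59 CPM (read counts scaled by the TMM-adjusted library total); floors cover counting error only. Tet1 read 249, 245 and 153 CPM in the untransfected, control siRNA and siTet1 libraries of pre2-2, and 204, 250 and 158 in those of pre3. The lines differed in cell markers. Pou5f1, a pluripotency factor, ranged over 1037 to 1203 CPM in the pre2-2 libraries and 5772 to 6593 in those of pre3. Pluripotency markers did not move together between lines. Of 6 tested, 3 were called higher in pre3 (Pou5f1, Dppa5a and Tdgf1) and 2 lower (Sall4 by 0.89 and Utf1 by 1.33), and Sox2 was not called. Nanog, a late marker of full reprogramming, was at 0 to 3.52 CPM in all 6 libraries. The summed level of 10 fibroblast markers was 1596 to 3853 CPM in pre2-2 against 830 to 1143 in pre3, so the fibroblast markers of the labelled cell type were present in both.

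Most of the integrin and laminin transcripts came from a few chains. Itgb1, the shared beta chain, had the highest level, given as TPM, a share of transcripts that takes gene length into account. Its TPM was 276 untransfected, 462 with control siRNA and 551 with siTet1 in pre2-2, and 258, 265 and 291 in pre3. It made up 60.5 to 68.1% of the TPM of all integrin beta chains. Lamc1, the gamma chain of most laminins, followed at 118 to 170 TPM in pre2-2 and 193 to 220 in pre3. Its second place holds for the median over the 6 libraries: in pre2-2 with siTet1 Lamc1 lay below Itga5 at 173 TPM, Lamb1 at 141 and Itgb4 at 140, among others.

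Itga6 stood at 98.7 to 120 TPM over the 6 libraries and Lama4, an alpha chain of vessel and mesenchymal basement membranes, at 98.4 to 116. Itgb4 stood at 81.0 to 140 and Lama5, the most widespread laminin alpha chain, at 86.5 to 128. The ranges of these 4 genes overlapped, so their order by median TPM (115, 111, 100 and 91.5) was not beyond their spread over libraries. Below these by median came Itgb5 at 71.7, Lamb1 at 69.1, Itga3 at 63.0, Itga5 at 62.5, Lamb2 at 58.8, Lama3 at 46.9 and Itgav at 32.1 TPM. A further 10 tested genes had medians of 0.894 (Itga9) to 9.11 (Lama1) TPM.

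**Figure D1:**
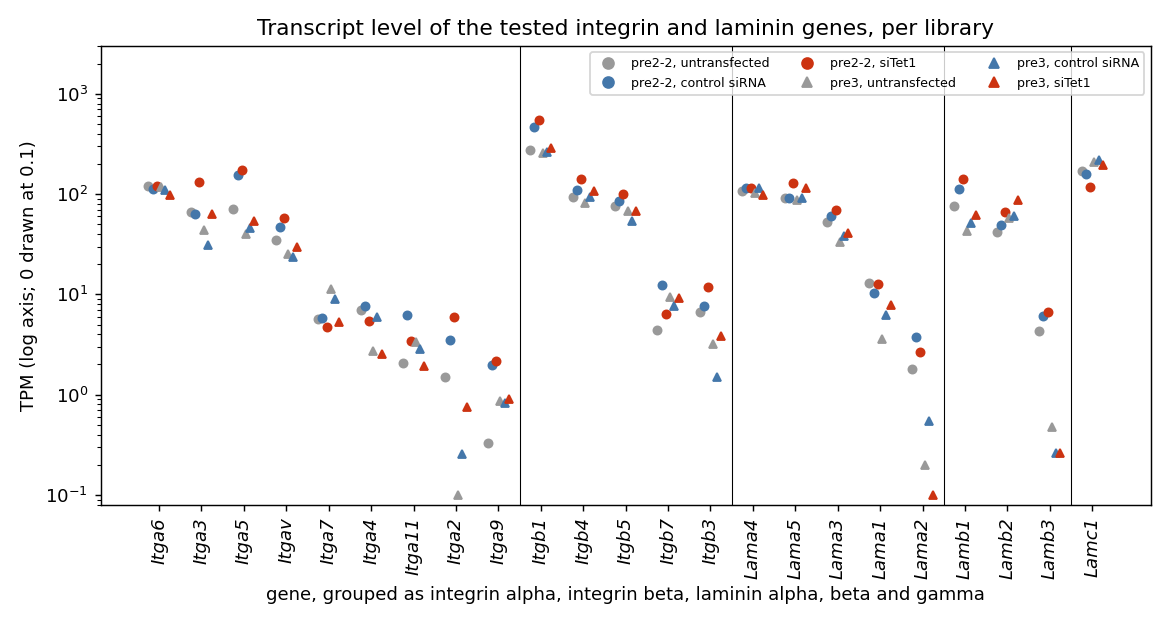
TPM of 23 of the 24 tested integrin and laminin genes on a log axis, 1 point per library (circles pre2-2, triangles pre3; grey untransfected, blue control siRNA, red siTet1), grouped by chain class and ordered by median. Itgb1 is highest in every library, and the pre3 points of Lama2, Lamb3 and Itga2 lie below those of pre2-2.

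The 13 genes that did not pass the filter on low counts were mostly chains of other cell types. Among chains of leukocyte integrins, most were at or under the floor of 3 counts: Itgal at 0 to 3 counts per library, Itgae at 0.99 to 2, Itgam at 1 to 6 and Itgb2 at 0 to 3, with Itgad and Itgax at 0 in all 6 libraries, which allows up to 1.59 CPM. Itgam exceeded it in untransfected pre2-2 alone. Itgb7, the beta chain that pairs with Itga4 and Itgae on lymphocytes, passed the filter with 15 to 31 counts (5.80 to 15.6 CPM). Ptprc, which marks leukocytes, was at 0 to 2.79 CPM and Cd3e at 0 in every library, while Laptm5 alone of 11 leukocyte markers in the files exceeded 24 CPM, at 160 to 310. Itga2b, the alpha chain of the platelet fibrinogen receptor, had 0 to 5 counts, and the platelet genes Gp9 and Gp6 had 0. Itgb6, an epithelial partner of Itgav, had 0 to 5 counts and Itgb8, another, had 0 in all libraries. The collagen-binding chains Itga1 and Itga10 had 1 to 10 and 1 to 7 counts, and the gamma chain Lamc3 had 0 to 1. Itga8, the nephronectin receptor chain, had 9, 8 and 27 counts in pre2-2 (untransfected, control siRNA, siTet1) and 1, 2 and 7 in pre3, highest with siTet1 in both lines. With no filter on low counts it was called for siTet1 against untransfected cells (1.97, SE 0.62, edgeR adjusted p = 0.0304) and between lines, where it fell by 1.91 in pre3 (SE 0.56, edgeR adjusted p = 0.00475), but not for siTet1 against control siRNA (1.65, SE 0.62, adjusted p = 0.212 by edgeR). Itga10 and Itgam share 30.6 and 66.3% of their 50-base words with another annotated transcript (Gm42957 and Gm49368), so their few reads are of uncertain origin.

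Reduction of Tet1 was compared with control siRNA to ask which of these genes respond when Tet1 is lowered in cells kept in vitamin C. The targeted gene itself fell by 0.67 on the log2 scale (SE 0.13, edgeR adjusted p = 0.0043). Of the 24 tested members, 3 were called, all higher with siTet1: the laminin receptor chain Itga3 and the laminin chains Lama5 and Lamb2. Of all 11048 genes tested, 1.58% were called in either direction and 1.15% as higher. The median log2 difference was 0.17 over the 24 members and 0.0039 over all genes, with 16 of the 24 above 0.

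Itga3 stood at 158 CPM without transfection, 144 with control siRNA and 304 with siTet1 in pre2-2. In pre3 these 3 libraries stood at 111, 74.4 and 153 CPM. The siTet1 library was highest within each line. Against control siRNA, Itga3 rose by 1.06 (SE 0.14, 2.08-fold, edgeR adjusted p = 9.04e-05), by 1.07 within pre2-2 and 1.03 within pre3. Leaving out each library in turn gave 0.91 to 1.17 with the call kept, and DESeq2 gave an adjusted p of 0.000797. None of its 50-base words occurs in another annotated gene.

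Lama5 stood at 513, 492 and 683 CPM in pre2-2 and at 517, 515 and 643 in pre3 (untransfected, control siRNA, siTet1). Untransfected and control cells of both lines lay within 492 to 517 CPM, and both siTet1 libraries lay above them. It was higher by 0.40 with siTet1 than with control siRNA (SE 0.10, 1.32-fold, edgeR adjusted p = 0.044).

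Lamb2, which replaces Lamb1 in laminins of muscle, nerve and kidney basement membranes, stood at 115, 130 and 177 CPM in pre2-2 and 170, 167 and 242 in pre3. Its siTet1 library was highest in each line. The difference from control siRNA was 0.49 (SE 0.13, 1.40-fold, edgeR adjusted p = 0.048). The calls of Lama5 and Lamb2 ended with DESeq2 (adjusted p = 0.662 and 0.914) and without any 1 of the 4 control siRNA and siTet1 libraries, where the differences ran from 0.34 to 0.45 and from 0.41 to 0.56.

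The other laminin chains of this comparison were not called. Lamb1, the beta chain of the embryonic laminins, stood at 216, 310 and 381 CPM in pre2-2 and 130, 148 and 177 in pre3, and differed by 0.28 from control siRNA (SE 0.13, adjusted p = 0.394 by edgeR). Lamc1 stood at 635, 579 and 423 CPM in pre2-2 and 833, 831 and 731 in pre3, lowest with siTet1 in both lines, with a difference of -0.31 (SE 0.11, adjusted p = 0.184 by edgeR). Both were called, as was Itgb4, when only the 4 libraries compared were fitted and without either untransfected library. Lama1, Lama2, Lama3, Lama4 and Lamb3 had differences of -0.78 to 0.32.

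Of the integrins not called, Itga4, a receptor chain for Vcam1 and fibronectin, was lower in both siTet1 libraries than in their controls: 36.2 against 24.7 CPM in pre2-2 and 29.2 against 12.7 in pre3. The difference was -0.83 (SE 0.25, adjusted p = 0.118 by edgeR). It was called with no filter on low counts, with only the 4 libraries compared and without either untransfected library. Its exons share 8.04% of their bases with Cerkl on the opposite strand. Itgb3, the beta chain of a vitronectin receptor, stood at 21.1 and 32.1 CPM in pre2-2 and 4.25 and 11.1 in pre3, a difference of 0.79 (SE 0.31, adjusted p = 0.295 by edgeR). Itga6, the alpha chain with the highest TPM median, differed by -0.03 (SE 0.12), and Itgb1 by 0.20 (SE 0.13). The values of other chains lay from -0.74 (Itga11) to 0.82 (Itga2), each with a larger SE where counts were low.

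Other cell markers moved with siTet1. The summed level of 7 epithelial markers was 372 CPM with control siRNA and 518 with siTet1 in pre2-2, and 202 and 343 in pre3. Of these 7, 5 were tested and 2 were called higher, Cdh1 and Krt19. Others went down in pre2-2: Krt8 from 60.9 to 35.9 CPM, Krt18 from 6.54 to 2.33 and Cldn4 from 10.1 to 6.05. In pre3 Krt8 went from 12.2 to 16.9 CPM and Cldn4 from 3.72 to 13.8, while Krt18 stayed at 0.53. The summed level of 15 interferon response genes, which cells induce on sensing foreign RNA, was 1262 and 494 CPM in pre2-2 and 504 and 357 in pre3, and 10 of the 14 tested were called lower with siTet1. Fibroblast markers summed to 3853 and 3268 CPM in pre2-2 and 1010 and 1143 in pre3. Of 6 tested pluripotency markers 2 were called higher with siTet1: Dppa5a by 1.63 (SE 0.20, edgeR adjusted p = 1.92e-05), at 11.6 CPM with control siRNA and 36.8 with siTet1 in pre2-2 against 39.8 and 122 in pre3, and Tdgf1 by 0.72 (SE 0.11, edgeR adjusted p = 0.000542), at 459 and 823 CPM in pre2-2 against 618 and 931 in pre3. The part of these genes in the differences of Itga3, Lama5 and Lamb2 was not tested. Fewer cells of a type and less RNA per cell cannot be told apart in such bulk libraries.

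**Figure D2:**
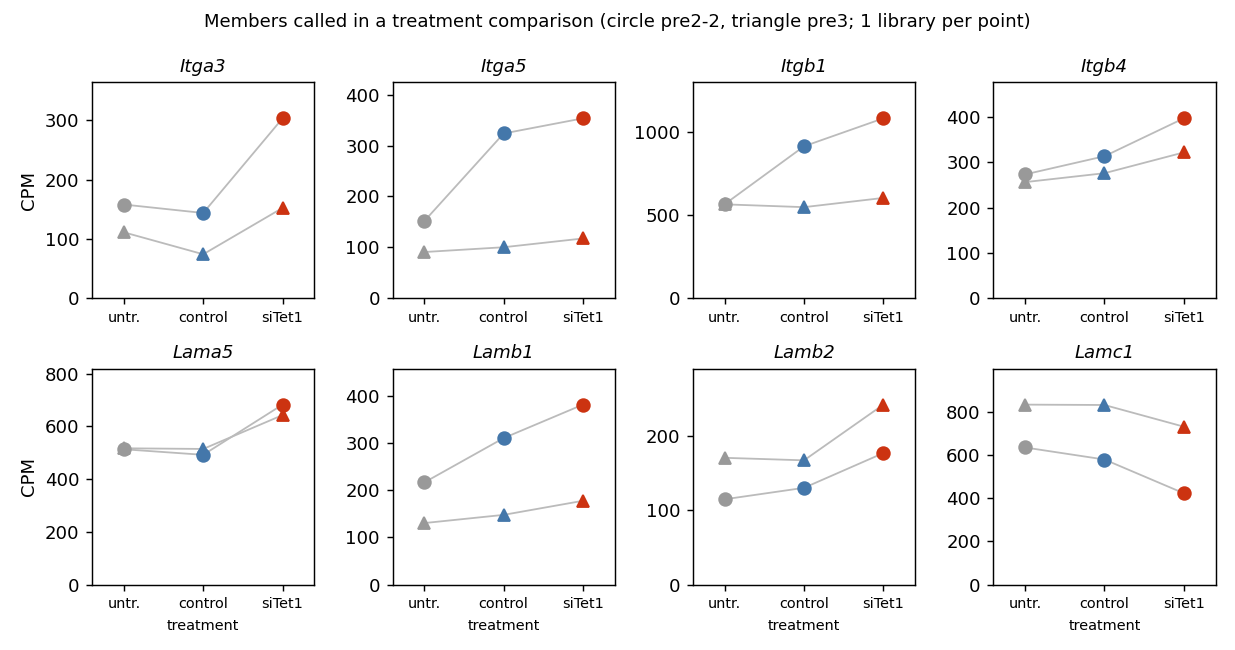
CPM by treatment of the 8 integrin and laminin genes called in at least 1 treatment comparison (circles pre2-2, triangles pre3, 1 library per point, lines join libraries of a cell line; each axis starts at 0). All but Lamc1, which is lowest there, are highest with siTet1 in both lines, and the lines of Itgb1 start together and part after transfection.

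Control siRNA was compared with untransfected cells to measure what transfection itself changed. Of the 24 members 1 was called, Itga5, the alpha chain of the fibronectin receptor, and it was higher. Of all genes tested, 1.48% were called in either direction and 1.38% as higher. Itga5 stood at 152 CPM untransfected, 324 with control siRNA and 353 with siTet1 in pre2-2, and at 90.9, 100 and 118 in pre3. The pre2-2 libraries thus spread far more than those of pre3. The fitted difference was 0.69 (SE 0.17, 1.61-fold, edgeR adjusted p = 0.0273), made of 1.09 within pre2-2 and 0.14 within pre3. Without the untransfected pre2-2 library it was 0.18 (adjusted p = 0.789) and 0.38 (adjusted p = 1.00) without that of pre2-2 with control siRNA; DESeq2 made no call (adjusted p = 0.764).

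Itgb1 showed the same split between lines without a call. It stood at 568 CPM untransfected, 917 with control siRNA and 1085 with siTet1 in pre2-2, and at 567, 550 and 605 in pre3. Both untransfected libraries lay together, and the lines parted in the transfected ones. The fitted difference between control siRNA and untransfected was 0.32 (SE 0.13, adjusted p = 0.422 by edgeR). Over the 24 members the median difference was 0.12, against 0.0028 over all genes.

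Fibroblast markers moved in the same libraries. Their sum was 1596 CPM untransfected, 3853 with control siRNA and 3268 with siTet1 in pre2-2, and 830, 1010 and 1143 CPM in pre3, and 5 of the 9 tested were called higher with control siRNA than without transfection. All 10 of that list were detected, and Lum alone was at 0 in some libraries (3 of 6). Interferon response genes summed to 282 CPM in untransfected pre2-2 and 287 in pre3, and 13 of 14 were called higher with control siRNA. Their part in the Itga5 and Itgb1 values was not tested.

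**Figure D3:**
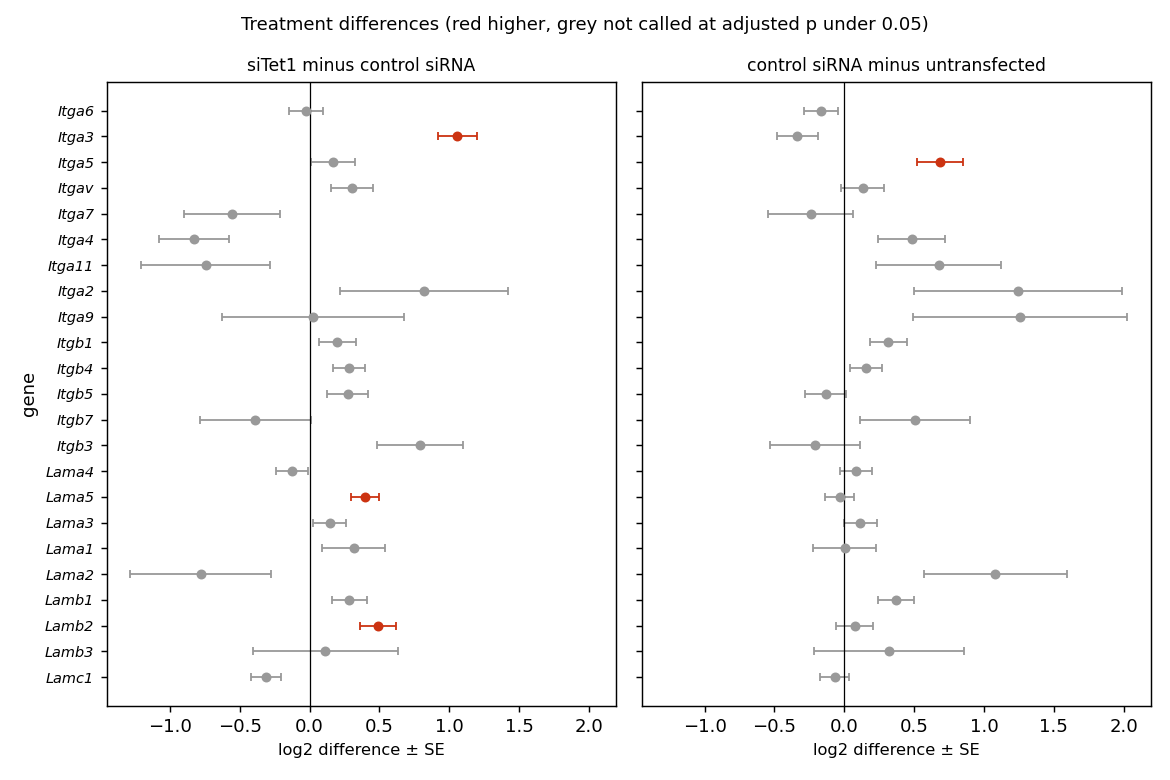
Log2 difference with its SE for 23 of the 24 tested genes, siTet1 minus control siRNA (left) and control siRNA minus untransfected (right); red marks genes called higher by edgeR and grey those not called. Itga3, Lama5 and Lamb2 are called on the left at 1.06, 0.40 and 0.49, and Itga5 on the right at 0.69.

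Against untransfected cells, 8 of the 24 members were called with siTet1, 7 higher and 1 lower. Of all genes tested, 6.55% were called, 4.92% higher and 1.63% lower. This comparison shares its siTet1 libraries with the first and its untransfected libraries with the second, so its calls are not separate evidence. The 3 genes named with siTet1 above had differences here of 0.72 for Itga3 (SE 0.14, edgeR adjusted p = 0.0016), 0.37 for Lama5 (SE 0.10, edgeR adjusted p = 0.0281) and 0.56 for Lamb2 (SE 0.13, edgeR adjusted p = 0.00636).

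Itga5 rose by 0.85 (SE 0.16, edgeR adjusted p = 0.00182) and Itgb1 by 0.51 (SE 0.13, edgeR adjusted p = 0.0197), which together form the fibronectin receptor. Within pre2-2 these differences were 1.22 and 0.93, and within pre3 0.37 and 0.10. Lamb1 rose by 0.65 (SE 0.13, edgeR adjusted p = 0.00201), by 0.81 in pre2-2 and 0.44 in pre3. Itgb4, the hemidesmosome chain, stood at 274, 314 and 397 CPM in pre2-2 and 256, 276 and 322 in pre3, and rose by 0.44 (SE 0.11, edgeR adjusted p = 0.0198). It was thus lowest untransfected and highest with siTet1 in each line. Lamc1 fell by 0.38 (SE 0.11, edgeR adjusted p = 0.0281).

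These calls leaned on single libraries. When siTet1 cells of pre2-2 were left out, the difference of Itgb1 went from 0.51 to 0.28 and that of Itga5 from 0.85 to 0.64. DESeq2 called 0 of the 24 on all 6 libraries. In the edgeR fit to all 6 libraries 12 of the 24 had an unadjusted p under 0.05, as did 2157 of all genes tested (19.5%). Without the untransfected pre2-2 library 4 were called, Lama1, Lama5, Lamb1 and Lamb2, and the differences of Itgb1 and Itga5 were 0.12 and 0.34. Without the pre3 siTet1 library 5 were called.

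Whether siTet1 or transfection acted differently in the lines was tested with interaction terms. For siTet1 against both controls of a line, 0 of the 24 members and 0% of all genes were called by edgeR. An unadjusted p under 0.05 was found for 0 members and for 270 genes (2.44%), and DESeq2 also called 0. For transfection, 0 members were called, against 0.00905% of all genes. Here 4 of the 24 members and 603 of all genes (5.46%) had an unadjusted p under 0.05. DESeq2 also called 0 members. The members with the lowest p were Itgb1, whose transfection difference in pre3 minus that in pre2-2 was -0.79 on the log2 scale (SE 0.20, adjusted p = 0.828 by edgeR), and Itga5, at -0.90 (SE 0.23, adjusted p = 0.872 by edgeR). The split of these genes between lines therefore did not pass the test of the difference itself.

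The lines were compared over 3 libraries each, with treatment in the model. Of the 24 members 17 were called, 14 lower and 3 higher in pre3. Of all genes tested, 30.2% were called, 14.4% higher and 15.8% lower. The CPM of the lines did not overlap for 12 members, 11 lower and 1 higher in pre3; of all genes tested 37% did not overlap, 18% lower and 18.9% higher. The median difference of the members was -0.58, against 0.0025 over all genes. Each line is a single line with its own culture history, so line and culture cannot be told apart.

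Lamb3, Lama2 and Itga2 had the widest gaps between lines, and their order was not beyond their SEs. All 3 passed the filter on low counts only through pre2-2 libraries. Their calls and lack of overlap, counted above, follow in part from that choice and do not support a gap between lines. Lamb3, a beta chain that joins Lama3 in the laminin of epidermal basement membrane, had 22, 23 and 27 counts in pre2-2 (untransfected, control siRNA, siTet1) and 2, 1 and 1 in pre3. It fell by 3.84 in pre3 on the log2 scale (SE 0.56, edgeR adjusted p = 7.06e-06). The pre3 libraries were under the floor of 3 counts, so the size of that difference is poorly fixed.

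Lama3 stood at 270, 295 and 334 CPM in pre2-2 and 181, 194 and 208 in pre3, and fell by 0.63 (SE 0.10, edgeR adjusted p = 1.67e-05). Both Lamb3 and Lama3 were lower in every pre3 library than in any of pre2-2. In TPM Lama3 exceeded Lamb3 by 9.98 to 12.4 times in pre2-2; no ratio is given for pre3, where Lamb3 was under the floor.

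Lama2, the alpha chain of muscle and nerve basement membranes, had 22, 34 and 26 counts in pre2-2 and 2, 5 and 0 in pre3, and fell by 3.32 (SE 0.51, edgeR adjusted p = 1.76e-05). Lama1, the first laminin alpha chain of the embryo, stood at 60.0, 46.8 and 57.3 CPM in pre2-2 and 17.9, 29.2 and 37.1 in pre3, and fell by 0.99 (SE 0.19, edgeR adjusted p = 0.000204). Lamb1 fell by 0.97 (SE 0.10, edgeR adjusted p = 6.26e-08). The ranges of the lines did not overlap for these 3 genes, as for 37% of all genes tested.

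Lamc1 and Lamb2 went the other way. Lamc1 stood at 423 to 635 CPM in pre2-2 against 731 to 833 in pre3, and was 0.56 higher in pre3 (SE 0.09, edgeR adjusted p = 1.52e-05). Lamb2 stood at 115 to 177 CPM in pre2-2 against 167 to 242 in pre3, with overlapping ranges, and was 0.46 higher (SE 0.10, edgeR adjusted p = 0.00142). Lama4 and Lama5 were not called between lines, with differences of -0.01 (SE 0.09) and -0.01 (SE 0.08).

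The makeup of the laminin beta chains by TPM therefore differed between lines. Lamb1 made up 62.5 to 67.4% of laminin beta chain TPM in pre2-2 and 41.6 to 46.1% in pre3, where Lamb2 led with 53.6 to 58.2%. Lama4 and Lama5 led the alpha chains in every library, with 35.1 to 46.1% and 32.4 to 43.7% of their TPM.

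**Figure D4:**
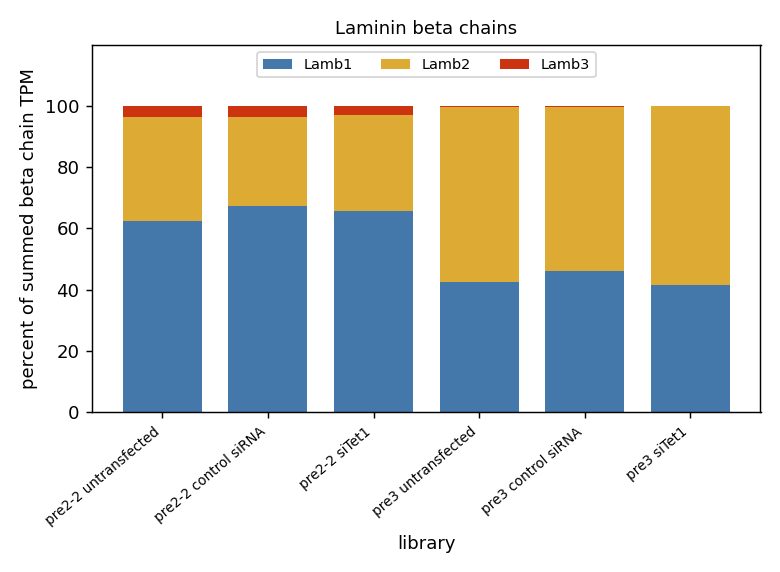
Percent of the summed TPM of the laminin beta chains that came from each gene, 1 bar per library. Lamb1 leads in the 3 pre2-2 libraries and Lamb2 in the 3 pre3 libraries, where Lamb3 is barely visible.

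Among integrins, Itga2, a collagen receptor chain, had 8, 14 and 25 counts in pre2-2 and 0, 1 and 3 in pre3, and fell by 3.29 in pre3 (SE 0.65, edgeR adjusted p = 0.000347). All pre3 libraries were at or under the floor. Itgb3 stood at 19.0, 21.1 and 32.1 CPM in pre2-2 and 9.71, 4.25 and 11.1 in pre3, and fell by 1.51 (SE 0.26, edgeR adjusted p = 7.61e-05). Itga5 fell by 1.36 (SE 0.13, edgeR adjusted p = 1.65e-08), its untransfected pre2-2 library at 152 CPM lying closest to the pre3 range of 90.9 to 118. Itgav, the partner of Itgb3 and Itgb5, stood at 120 to 193 CPM in pre2-2 against 82.9 to 103 in pre3, and fell by 0.73 (SE 0.12, edgeR adjusted p = 5.18e-05). These 4 genes too are among the 12 members without overlap.

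Itga3 fell by 0.82 in pre3 (SE 0.12, edgeR adjusted p = 4.57e-06), although its ranges of 144 to 304 and 74.4 to 153 CPM overlapped. Itga4 fell by 0.78 (SE 0.21, edgeR adjusted p = 0.00509), with ranges of 24.7 to 36.2 CPM in pre2-2 against 12.7 to 29.2 in pre3. Itgb1 and Itgb5 were called lower with smaller differences, -0.53 and -0.37, and Itgb1 ranged from 568 to 1085 CPM in pre2-2 against 550 to 605 in pre3. Itga7, a laminin receptor chain of muscle, was the 1 integrin called higher in pre3 (0.74, SE 0.26, edgeR adjusted p = 0.0327). It stood at 8.85 to 11.2 CPM in pre2-2 against 10.6 to 24.0 in pre3. Of 5 muscle genes, Myod1, Myog and Ckm were at 0 in all 6 libraries. Des stood at 3.10, 5.03 and 5.59 CPM in pre2-2 (untransfected, control siRNA, siTet1) and 14.3, 8.50 and 5.83 in pre3. Acta1 stood at 3.87, 7.55 and 38.7 CPM in pre2-2 and 0, 2.655 and 2.648 in pre3. Between lines Des was not called (1.06, SE 0.41) and Acta1 was called lower in pre3 (-3.14, SE 0.47). Without the treatment term 11 of the 17 calls held, those of Itga3, Itga4, Itga7, Itgb1, Itgb5 and Lamb2 being lost.

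Not called between the lines were Itga6, Itga9, Itga11, Itgb4, Itgb7, Lama4 and Lama5. Itga6 stood at 223 to 248 CPM in pre2-2 against 206 to 261 in pre3, a difference of -0.03 (SE 0.10). Itga6 made up 37.6 to 47.8% of integrin alpha TPM in pre3 and 23.3 to 38.2% in pre2-2, where Itga5 led in the transfected libraries with 38.4 and 33.4%. Fibroblast markers went with the line: 8 of 9 tested were called lower in pre3, and their sum did not overlap between lines. Their part in the lower integrin and laminin values of pre3 was not tested.

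**Figure D5:**
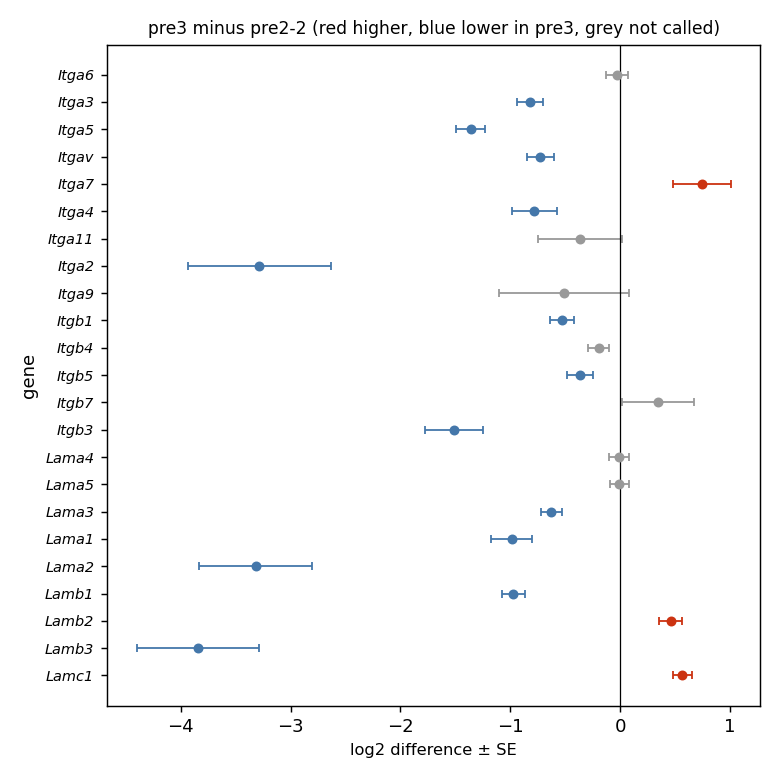
Log2 difference between pre3 and pre2-2 with its SE for 23 of the 24 tested genes (3 libraries a line); blue marks genes called lower in pre3, red higher and grey not called. Lamb3, Lama2 and Itga2 lie lowest, near -3.84, -3.32 and -3.29. Itga7, Lamc1 and Lamb2 lie above 0, as does Itgb7, which was not called.

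Genes that work with integrins and laminins were followed as 4 lists, whose counts stand beside the shares of all genes called: 1.58% for siTet1 against control siRNA, 1.48% for control siRNA against untransfected, 6.55% for siTet1 against untransfected and 30.2% between lines (15.8% lower and 14.4% higher in pre3). Inside the cell, adaptors and kinases couple integrins to actin. Of 31 tested, 1 was called higher with siTet1 than with control siRNA and 0 lower: Parvb, which links the integrin-linked kinase to actin, by 0.73 (SE 0.16, edgeR adjusted p = 0.0178). With control siRNA against untransfected cells 2 were called higher, the focal adhesion protein Zyx by 0.87 (SE 0.18) and the actin crosslinker Actn1 by 0.80 (SE 0.16), with edgeR adjusted p of 0.00547 and 0.00393. Zyx stood at 97.9 and 223 CPM in pre2-2 and 45.5 and 56.8 in pre3, a wider gap within pre2-2 than within pre3. Against untransfected cells 7 were called higher with siTet1, led by the paxillin relative Tgfb1i1 (1.73, SE 0.30). In pre3 against pre2-2 16 were called lower and 2 higher (58.1% of the list against 30.2% of all genes); Tgfb1i1 fell by 2.51 (SE 0.26). The list's medians in these comparisons were 0.02, 0.20, 0.23 and -0.30.

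Basement membrane partners of laminins had 18 tested genes. With siTet1 against control siRNA 2 were called, both higher: Col18a1, a collagen of basement membranes, by 1.32 (SE 0.13, edgeR adjusted p = 9.09e-07), and Nid2, which links laminin to collagen IV, by 0.56 (SE 0.14, edgeR adjusted p = 0.0297). Col18a1 stood at 264, 297 and 833 CPM in pre2-2 and 334, 282 and 616 in pre3. Its siTet1 libraries lay far above the other 4. With control siRNA against untransfected cells 4 were called higher, Col4a5 by 1.44 (SE 0.30), Sparc by 0.89 (SE 0.14), Agrn by 0.64 (SE 0.14) and Col4a2 by 0.63 (SE 0.16). With siTet1 against untransfected cells 7 were called higher and 0 lower. Between the lines 6 were called lower and 2 higher in pre3 (44.4% against 30.2% of all genes), the largest being Smoc2 at -3.60 (SE 0.48). The list's medians were 0.16, 0.13, 0.47 and -0.32.

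Integrin ligands other than laminins had 23 tested genes. With siTet1 against control siRNA 6 were called higher and 1 lower. Spp1 (osteopontin), a ligand of Itgav and Itga5 receptors among others, was higher by 1.42 (SE 0.10, edgeR adjusted p = 8.79e-10), at 866 and 2534 CPM in pre2-2 and 448 and 1084 in pre3. Cdh1 (E-cadherin, bound by Itgae) was higher by 1.04 (SE 0.14), the matrix protein Tnc by 0.80 (SE 0.11) and Thbs2 by 0.78 (SE 0.19), and Thbs1 was the 1 called lower. With control siRNA against untransfected cells 8 were called, all higher, among them Vcam1 by 1.78 (SE 0.37) and Thbs1 by 1.65 (SE 0.15). With siTet1 against untransfected cells 14 were called higher and 0 lower. In pre3 19 were called lower than in pre2-2 and 0 higher (82.6% against 30.2% of all genes), led by Npnt, the ligand of Itga8, at -3.08 (SE 0.39) and Thbs1 at -2.81 (SE 0.12). The list's medians were 0.04, 0.47, 0.81 and -1.39. It holds 5 of the 10 fibroblast markers, Col1a1, Col1a2, Col3a1, Postn and Fbn1, and the epithelial marker Cdh1.

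Tetraspanins and other partners in the membrane had 15 tested genes. With siTet1 against control siRNA 1 was called, Igsf8, a tetraspanin partner, which rose by 0.79 (SE 0.19, edgeR adjusted p = 0.0265). With control siRNA against untransfected cells 1 was called, Cav1, the caveolae protein, which rose by 0.98 (SE 0.22, edgeR adjusted p = 0.0152). With siTet1 against untransfected cells 5 were called higher. Between lines 3 were called lower and 3 higher in pre3, 40% of the list against 30.2% of all genes. The lower ones included Plaur, the urokinase receptor, at -1.95 (SE 0.13) and Cd44, a hyaluronan receptor, at -0.83 (SE 0.10); the higher ones included Igsf8 at 0.70 (SE 0.15). The list's medians were 0.07, 0.05, 0.32 and -0.06. No gene of the 4 lists was called in either interaction.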

How the data were processed

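Per the submitters' processing notes, the authors used RSEM 1.1.21 and mm9; libraries were made with a TruSeq RNA kit from Trizol-extracted RNA, per the labels. The authors deposited for each library an expected count per gene, RSEM's estimate with no normalization, and a fraction, which estimates what part of all transcripts a gene supplied; it was scaled to TPM here. Whether counting used strand, the read length and the alignment settings are not given in the sources used here. A TPM table of the whole series was not used; 1 of its columns is headed with a name that matches no sample.

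The expected counts, after rounding, went into edgeR 4.0.16 under R 4.3.3 (filterByExpr at a minimum count of 10 with treatment as group, TMM, quasi-likelihood test, two-sided, Benjamini-Hochberg adjustment over 11048 genes, calls at adjusted p under 0.05). The model held line and treatment over all 6 libraries (2 residual degrees of freedom), and SE is the absolute log2 difference over the square root of F. An exact permutation test of 2 libraries against 2 that ignores the pairing by line has 0.333 as its smallest p. Kept within lines, its smallest p is larger. Interaction models held line, siTet1 or transfection, and their product, and pool the other 2 libraries of a line as if replicates. The line pairs the libraries. Deviations of pre3 libraries from treatment means correlated between treatments at 0.667 to 0.772 over genes. With 2 libraries per treatment these correlations restate the line difference and cannot show a shared culture. DESeq2 1.42.0, other scaling factors, no filter and left-out libraries were tried as alternatives. The code was tested on simulated data.

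Members and gene lists (adaptors and kinases, basement membrane partners, ligands, tetraspanins, interferon response, cell markers) were chosen with earlier results of these data known. Values of 1 member are not reported here, though counts over members include it. Every other member was accounted for; given in full were those called in a treatment comparison, up to 12 called between lines with the largest difference, and the 6 with the highest median TPM; partner lists show up to 4 called genes per comparison. Words of 50 bases and exon overlaps came from GENCODE M21 on GRCm38.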

Additional observations from a re-analysis of the deposited data

How the results depend on the processing

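No called difference of a member changed direction under any alternative run. With DESeq2, members called were 1 for siTet1 against control siRNA, 0 for control siRNA against untransfected, 0 for siTet1 against untransfected and 13 between lines; over all genes they were 24, 32, 87 and 1429, against 175, 164, 724 and 3335 with edgeR. Without the replicate block (the cell line) 0 members and 0 genes were called in each of the 3 treatment comparisons. With the replicate block and only the 4 libraries compared, 7 members and 614 genes were called for siTet1 against control siRNA, 1 and 219 for control siRNA against untransfected, and 6 and 680 for siTet1 against untransfected. Without the treatment term 11 members and 2061 genes were called between lines. With no filter, 292 and 259 genes were called in the first 2 comparisons and 7 in the interaction with siTet1; DESeq2 called 5 in the interaction with transfection. The causes were not tested.

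Leaving out each library in turn gave 1 to 7 members for siTet1 against control siRNA (32 to 625 genes), 0 to 3 for control siRNA against untransfected (29 to 713 genes), 0 to 12 for siTet1 against untransfected (167 to 1883 genes), 15 to 17 between lines (2172 to 3538 genes) and 0 in both interactions (0 to 4 and 0 to 2 genes). For siTet1 against control siRNA, 7 were called without either untransfected library (Itga4, Itgb4, Lamb1 and Lamc1 added) and 1, Itga3, without any other. For control siRNA against untransfected, leaving out the untransfected pre3 library gave 3 calls, leaving out the pre2-2 control siRNA library 0, and leaving out the untransfected pre2-2 library Itga3 in place of Itga5. A library left alone in its treatment was assumed to vary like the others. Interactions with siTet1 could not be fitted without either siTet1 library, nor those with transfection without either untransfected library. Of the calls between lines, those of Itga2, Itga5, Itgav, Itgb3, Lama1, Lama2, Lama3, Lamb1, Lamb3 and Lamc1 were kept under all 12 alternatives; that of Itga7 was lost in 7 and that of Itgb5 in 6. Depth limits the members with few counts, Itga2, Lama2 and Lamb3 in pre3 above all. These genes passed the filter only through pre2-2 libraries.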

Other observations

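Laminins also bind receptors other than integrins. Dag1, the core of the dystroglycan complex, stood at 103, 105 and 139 CPM in pre2-2 and 144, 139 and 153 in pre3 (untransfected, control siRNA, siTet1) and was 0.33 higher in pre3 (SE 0.11, edgeR adjusted p = 0.025). Bcam, which binds laminins with Lama5, stood at 19.0, 22.7 and 26.1 CPM in pre2-2 and 7.15, 4.25 and 8.47 in pre3 and fell by 1.76 in pre3 (SE 0.27, edgeR adjusted p = 1.90e-05). Neither was called in a treatment comparison; both were picked after their values were seen.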
